A study of Mus musculus with 14 samples.

Results

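The genes described here are the core of the circadian clock, the cell-autonomous oscillator that times physiology to the day, as measured in pancreatic islets of mice on a high-fat diet. They were chosen by name, 10 genes in all: the activators Arntl, Clock and Npas2, the repressors Per1, Per2, Per3, Cry1 and Cry2, the nuclear receptor gene Nr1d1 and the output factor Dbp. A gene was measured here when a probe set of the array was annotated to that gene alone, which held for 8 of the 10 genes, among 18820 genes in the whole series. Nr1d1 and Dbp lie on probe sets annotated to 2 symbols each and have no value of their own. Each of the 8 measured genes had 1 probe set, so no choice between probe sets was needed. The probe sets were 10556463 for Arntl, 10530733 for Clock, 10345675 for Npas2, 10377439 for Per1, 10356601 for Per2, 10518781 for Per3, 10371400 for Cry1 and 10485170 for Cry2.

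Islets came from wild-type C57BL/6 mice (WT) or from Tlr2/Tlr4 double knockout mice (DKO), bred on a C57BL/6 background, which lack 2 innate immune receptors from birth in every tissue. All mice were housed free of specific pathogens and ate a diet with 60% fat from 6 weeks of age, so no group on a control diet is described here. The groups were WT after 5 weeks of diet (4 arrays), DKO after 5 weeks (2), WT after 7 months (4) and DKO after 7 months (4), 1 mouse for each array by the wording of the labels. The mice of 7 months were also older, so age and time on diet cannot be told apart. The hour of day at which islets were collected is not stated in the labels. Values are log2 signals of a whole-transcript array, and 1 unit is a doubling. Array medians lay between 3.89 and 3.98, and the number of arrays limits the precision. Islet markers were bright on every array, with the islet hormone genes Iapp between 12.62 and 12.92 and Ins2 between 11.76 and 11.99. The targeted gene Tlr2 averaged 6.45 in WT and 4.79 in DKO islets at 5 weeks, and 6.37 and 5.31 at 7 months. The other targeted gene, Tlr4, averaged 2.86 in WT and 3.21 in DKO at 5 weeks and 3.00 and 3.30 at 7 months, so it was not lower in DKO, with all values below the array medians. No source used here places either probe set within or outside the deletion.

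In the mouse clock, ARNTL (also called BMAL1) pairs with CLOCK or its relative NPAS2 and switches on the Per and Cry genes, whose proteins return to the nucleus and block that pair. A second loop adds REV-ERB receptors, encoded by Nr1d1 and Nr1d2, which compete with ROR receptors and repress Arntl, so that Arntl RNA runs opposite to the RNA of Nr1d1, Dbp and the Per genes over the day. In islets of mice, loss of Arntl from beta cells impairs insulin release.

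Promoter sequence is shown for 6 genes, 4 of those named above and 2 loop regulators that are described further down. They are Arntl, then Cry1, Nfil3 and Tef, whose RNA ran with or against that of Arntl between arrays. Per1 is shown as a textbook target of the ARNTL pair. Per3 is shown too, although its correlation with Arntl did not pass (r = -0.65, adjusted exact permutation p = 0.19). The sign of its r also differed between the 2 times, at neither of which it passed. Each window runs 5′ to 3′ from 250 bases before to 50 bases after a transcript start in RefSeq (build GRCm38.p6). Of a gene with several windows, the one with the most matches to the motifs below is shown, or the first of equals. The other Arntl and Per1 windows hold 0 matches, and so do the windows of Npas2 and Dbp, which are not shown. Capitals mark matches on either strand to 4 motifs: the E-box CACGTG and its variant CACGTT, bound by ARNTL with CLOCK or NPAS2, the D-box TTATGTAA or TTACGTAA, bound by DBP, TEF, HLF and NFIL3, and AGGTCA, the half-site of ROR and REV-ERB receptors. The windows are Arntl at chr7:113207261-113207560 (plus strand), Nfil3 at chr13:52980990-52981289 (minus), Cry1 at chr10:85185005-85185304 (minus), Per1 at chr11:69098699-69098998 (plus), Per3 at chr4:151044616-151044915 (minus) and Tef at chr15:81802423-81802722 (plus).
Arntl: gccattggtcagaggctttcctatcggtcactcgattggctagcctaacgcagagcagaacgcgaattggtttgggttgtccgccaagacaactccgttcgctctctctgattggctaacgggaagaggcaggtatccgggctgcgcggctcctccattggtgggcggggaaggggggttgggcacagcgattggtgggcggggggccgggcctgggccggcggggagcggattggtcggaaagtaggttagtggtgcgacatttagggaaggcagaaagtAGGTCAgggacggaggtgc
Nfil3: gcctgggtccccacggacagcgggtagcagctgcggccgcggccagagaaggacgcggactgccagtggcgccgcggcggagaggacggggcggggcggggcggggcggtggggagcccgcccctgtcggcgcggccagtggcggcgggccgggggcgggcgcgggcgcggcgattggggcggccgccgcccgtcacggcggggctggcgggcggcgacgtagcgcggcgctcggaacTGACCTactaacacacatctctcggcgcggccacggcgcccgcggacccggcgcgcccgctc
Cry1: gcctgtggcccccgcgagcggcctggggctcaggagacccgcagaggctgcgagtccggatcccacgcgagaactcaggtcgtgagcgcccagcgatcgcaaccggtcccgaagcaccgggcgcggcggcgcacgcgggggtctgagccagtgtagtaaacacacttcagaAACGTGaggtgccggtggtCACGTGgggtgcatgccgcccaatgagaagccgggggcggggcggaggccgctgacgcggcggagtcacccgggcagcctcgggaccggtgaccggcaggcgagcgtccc
Per1: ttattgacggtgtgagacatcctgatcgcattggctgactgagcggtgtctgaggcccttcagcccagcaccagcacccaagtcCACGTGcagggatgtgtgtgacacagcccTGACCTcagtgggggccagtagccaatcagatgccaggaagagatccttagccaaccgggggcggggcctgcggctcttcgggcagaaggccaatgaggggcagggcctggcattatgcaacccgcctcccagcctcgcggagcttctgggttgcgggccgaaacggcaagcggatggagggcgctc
Per3: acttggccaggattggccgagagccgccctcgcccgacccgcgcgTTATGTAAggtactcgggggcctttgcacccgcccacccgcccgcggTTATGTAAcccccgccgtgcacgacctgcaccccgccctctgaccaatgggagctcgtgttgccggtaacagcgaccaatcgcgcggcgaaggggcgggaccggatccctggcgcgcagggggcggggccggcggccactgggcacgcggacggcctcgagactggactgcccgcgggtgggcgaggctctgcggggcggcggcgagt
Tef: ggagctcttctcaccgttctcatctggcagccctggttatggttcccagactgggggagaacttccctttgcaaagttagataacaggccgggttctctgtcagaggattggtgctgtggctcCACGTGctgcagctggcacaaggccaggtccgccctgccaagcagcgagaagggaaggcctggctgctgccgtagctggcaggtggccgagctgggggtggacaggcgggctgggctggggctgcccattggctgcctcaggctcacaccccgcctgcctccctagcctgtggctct

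Arntl holds an AGGTCA 31 bases after this start, and Nfil3 holds one, read on the opposite strand, 12 bases before its start. The Cry1 window has an E-box 60 bases and the variant 79 bases before the start. In Per1 the E-box lies 166 bases before the start, and an AGGTCA on the opposite strand lies 137 bases before it. Per3 carries 2 D-boxes, 205 and 158 bases before the start, and Tef an E-box 127 bases before it. Among all 32851 promoter windows of the table, 7.15% hold the E-box, 4.68% its variant, 1.06% a D-box and 16.3% an AGGTCA. No 2 of these matches overlap. A match is a stretch of letters, and binding was not measured. RefSeq windows were found for 9 of the 10 clock genes, and an E-box was present in 2 of them, the variant in 3, a D-box in 1 and an AGGTCA in 3, counting a gene once whichever of its windows held the match.

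None of the 8 clock genes passed the test between any 2 groups. A linear model with 1 mean for each of the 4 groups was fitted to all 18820 genes with limma, and p-values were adjusted over all genes by the Benjamini-Hochberg method and judged at 0.05. For DKO against WT, 0 of 8 passed at 5 weeks, where 0.994% of all genes passed (0.499% higher and 0.494% lower in DKO), and 0 of 8 at 7 months, against 4.71% of all genes (2.44% higher and 2.27% lower). For 7 months against 5 weeks, 0 of 8 passed in WT (2.37% of all genes, 1.35% higher and 1.01% lower at 7 months) and 0 of 8 in DKO (7.57%, 4.86% higher and 2.7% lower). For the interaction of genotype and time 0 of 8 passed, against 0.0903% of all genes (0.0266% higher and 0.0638% lower). At an unadjusted limma p under 0.05 the counts were 0 and 4 for genotype at the 2 times, 1 and 4 for time in WT and DKO, and 0 for the interaction. Of all 18820 genes, 2282 and 3456 were under it for genotype at 5 weeks and 7 months. For time 2753 were under it in WT and 4040 in DKO, and for the interaction 1909. In bulk islets, fewer cells of a type and less RNA per cell cannot be told apart.

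**Figure D1:**
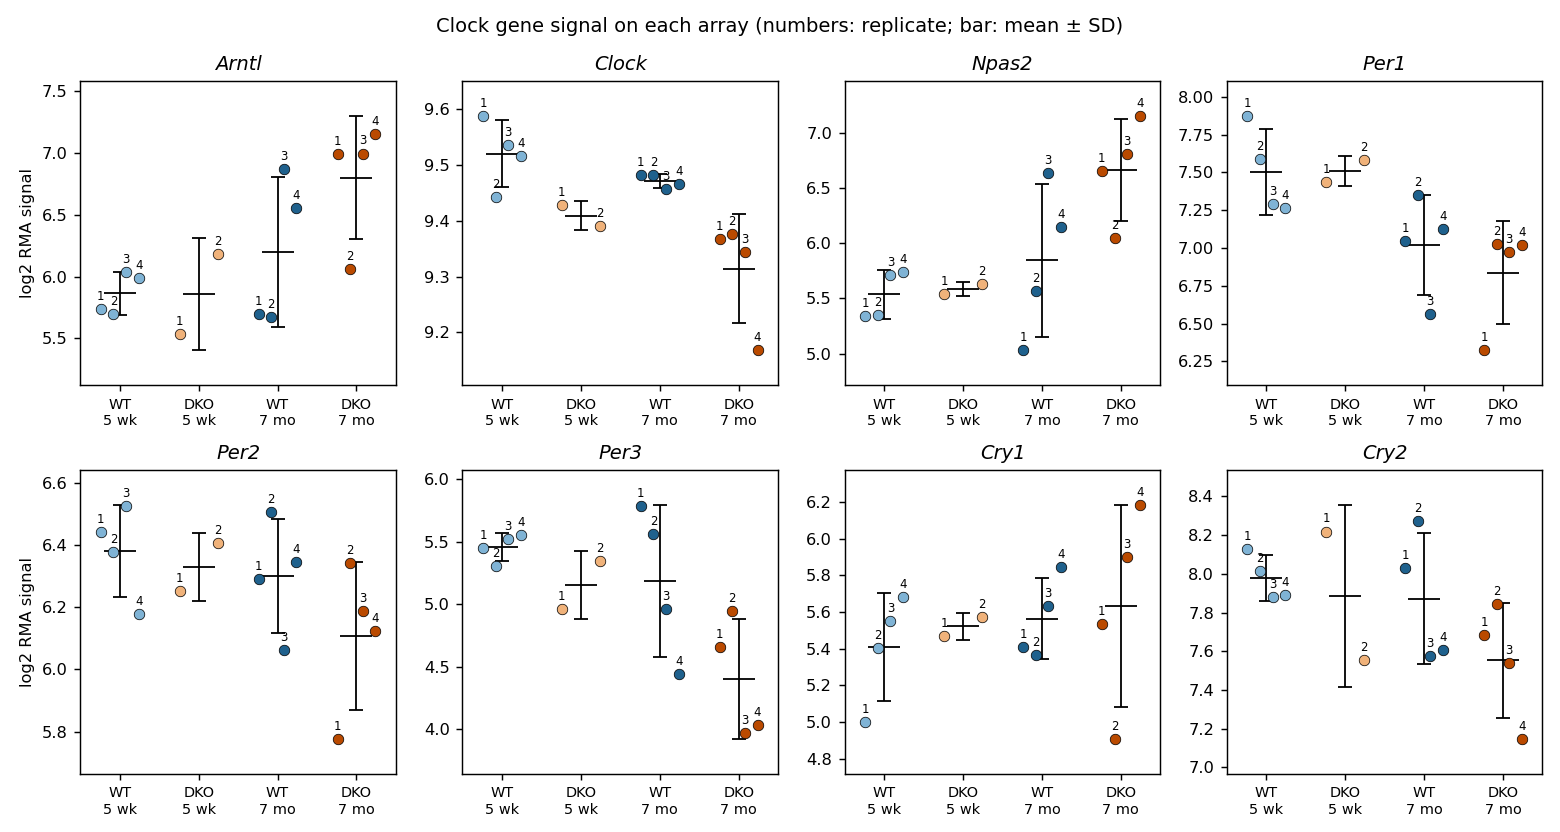
Log2 RMA signal of the 8 measured clock genes on each of the 14 arrays. Each panel has its own vertical axis, which does not start at 0. Points are arrays labelled with their replicate number, and bars are the group mean ± SD (n = 4, 2, 4 and 4). Arntl and Npas2 are spread widely in both 7-month groups, and Per3 is spread the other way.

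Arntl, the activator without which the mouse clock stops, gave 5.73, 5.69, 6.04 and 5.99 in WT replicates 1 to 4 at 5 weeks and 5.54 and 6.18 in DKO islets. At 7 months it was 5.70, 5.67, 6.87 and 6.56 in WT and 7.00, 6.06, 7.00 and 7.15 in DKO. WT replicates 1 and 2 of 7 months thus lay within the range of the 5-week arrays, which came from other mice. The other WT arrays of 7 months and 3 of the 4 DKO arrays lay above all 5-week arrays, and DKO replicate 2 lay within the 5-week range. The 5-week means were 5.86 ± 0.17 for the 4 WT and 5.86 ± 0.45 for the 2 DKO arrays (SD), followed by 6.20 ± 0.61 for WT and 6.80 ± 0.50 for DKO at 7 months (n = 4 each), and neighbours in this order overlapped. The log2 difference of DKO from WT at 7 months was 0.60 ± 0.28 (SE; limma adjusted p = 0.266), and that of 7 months from 5 weeks in DKO was 0.94 ± 0.34 (adjusted p = 0.114). Without DKO replicate 2 the latter was 1.19 with adjusted p = 0.0238.

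Npas2, a relative of Clock that can take its place as the partner of ARNTL, followed the same arrays. At 5 weeks it was 5.34, 5.35, 5.71 and 5.74 in WT and 5.54 and 5.63 in DKO islets. The 7-month values were 5.03, 5.57, 6.63 and 6.15 in WT and 6.65, 6.04, 6.81 and 7.15 in DKO, so that all 4 DKO arrays lay above all 5-week arrays while the 7-month genotypes overlapped. Within DKO, 15.7% of all genes were higher at 7 months without overlap. Its means at 7 months were 5.84 ± 0.69 in WT and 6.66 ± 0.46 in DKO (SD, n = 4 each), and at 5 weeks 5.54 ± 0.22 in WT (n = 4) and 5.58 ± 0.06 in DKO (n = 2). In rising order of these means (WT then DKO at 5 weeks, WT then DKO at 7 months) each group overlapped the next. The DKO difference at 7 months was 0.82 ± 0.28 (SE; 1.76-fold, limma adjusted p = 0.123). The difference of 7 months from 5 weeks in DKO, 1.08 ± 0.35 (2.11-fold), was the widest log2 difference among the 8 genes and 5 comparisons, with limma adjusted p = 0.0751. Single arrays decided these calls. At 7 months the genotype difference was 1.08 (adjusted p = 0.0372) without WT replicate 3 and 1.03 (0.0367) without DKO replicate 2. The time difference in DKO had adjusted p = 0.0374 without WT replicate 1 of 7 months, 0.0407 without WT replicate 3 of 7 months and 0.0255 without DKO replicate 2 of 7 months.

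Clock, the other partner of ARNTL, varied least of the 8 genes. It lay between 9.44 and 9.59 in WT and was 9.43 and 9.39 in DKO islets at 5 weeks. At 7 months it lay between 9.46 and 9.48 in WT and was 9.37, 9.38, 9.34 and 9.17 in DKO. Every DKO array was below every WT array of the same time, a pattern shown by 10.3% of all genes at 5 weeks and 5.25% at 7 months in that direction (11.2% and 5.35% were higher without overlap). The differences were -0.11 ± 0.09 and -0.16 ± 0.07 (SE; limma adjusted p = 0.688 and 0.254). Among the 8 genes Clock was the only one with such a separation of the genotypes at either time.

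Among the repressors, Per3, whose protein is a lesser arm of the loop in mice, showed the widest differences. It was 5.45, 5.30, 5.52 and 5.55 in WT and 4.96 and 5.35 in DKO islets at 5 weeks. At 7 months it was 5.79, 5.56, 4.96 and 4.44 in WT and 4.66, 4.94, 3.97 and 4.03 in DKO. WT replicates 1 and 2, which were low in Arntl, were the highest of all 14 arrays in Per3, and DKO replicates 3 and 4 were the lowest. The means were 5.45 ± 0.11 and 5.15 ± 0.27 at 5 weeks and 5.19 ± 0.61 and 4.40 ± 0.48 at 7 months in WT and DKO (SD, n = 4, 2, 4 and 4). The genotype difference was -0.79 ± 0.26 at 7 months (SE; limma adjusted p = 0.109) and -0.30 ± 0.32 at 5 weeks (0.796). At 7 months it was -1.03 (adjusted p = 0.027) without WT replicate 4 and -0.97 (0.0358) without DKO replicate 2. The lowest Per3 values lay close to the array medians.

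Per1, which responds to acute stimuli such as cAMP and glucocorticoids as well as to the clock, was 7.87, 7.59, 7.29 and 7.27 in WT and 7.44 and 7.58 in DKO islets at 5 weeks. It was 7.05, 7.35, 6.57 and 7.12 in WT and 6.33, 7.03, 6.97 and 7.02 in DKO islets at 7 months. All DKO arrays of 7 months were below both DKO arrays of 5 weeks, as were those of 11.1% of all genes. In WT only replicate 2 of 7 months reached into the 5-week range. The time difference was -0.48 ± 0.19 in WT (SE; limma adjusted p = 0.242) and -0.67 ± 0.23 in DKO (adjusted p = 0.0955), and the genotypes differed by 0.01 ± 0.23 at 5 weeks and by -0.18 ± 0.19 at 7 months. In DKO islets over time, 3 of 20 measured immediate early genes rose, Zfp36, Dusp1 and Btg2, and 0 fell (4.86% and 2.7% of all genes). In WT islets over time 0 of the 20 passed (1.35% of all genes higher and 1.01% lower). The mean level of that list sets each gene against its mean over the arrays. In DKO it lay between -0.24 and -0.21 at 5 weeks and between -0.03 and 0.26 at 7 months, higher where Per1 was lower. In WT it lay between 0.04 and 0.19 at 5 weeks and between -0.20 and 0.15 at 7 months. Its WT mean was thus lower at 7 months (-0.05 against 0.11), as was that of Per1. The part of this list in the Per1 values was not tested.

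Per2 varied less, between 6.18 and 6.53 in the 5-week arrays of WT, 6.25 and 6.41 in DKO, 6.06 to 6.51 in WT at 7 months and 5.78 to 6.34 in DKO at 7 months. Its differences lay between -0.22 and -0.05 in the 4 comparisons of 2 groups. All of its neighbouring groups overlapped.

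Cry1 and Cry2 encode the repressors that block the ARNTL pair most strongly, and they ran in opposite directions between arrays. Cry1 was 5.00, 5.40, 5.55 and 5.68 in WT and 5.47 and 5.57 in DKO islets at 5 weeks, and 5.41, 5.36, 5.63 and 5.85 in WT and 5.54, 4.91, 5.90 and 6.18 in DKO at 7 months. DKO islets of 7 months held both the lowest and the highest value of all arrays, in replicates 2 and 4. Cry2 was 8.13, 8.02, 7.88 and 7.89 in WT and 8.22 and 7.55 in DKO at 5 weeks, and 8.03, 8.27, 7.57 and 7.61 in WT and 7.68, 7.84, 7.54 and 7.15 in DKO at 7 months. The lowest Cry2 value was thus in the array with the highest Cry1 value. Group means of Cry1 lay between 5.41 and 5.63, and Cry2 differed by at most 0.33 between 2 groups compared, in DKO over time (-0.33 ± 0.22 SE, limma adjusted p = 0.428). All compared groups overlapped in both genes.

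**Figure D2:**
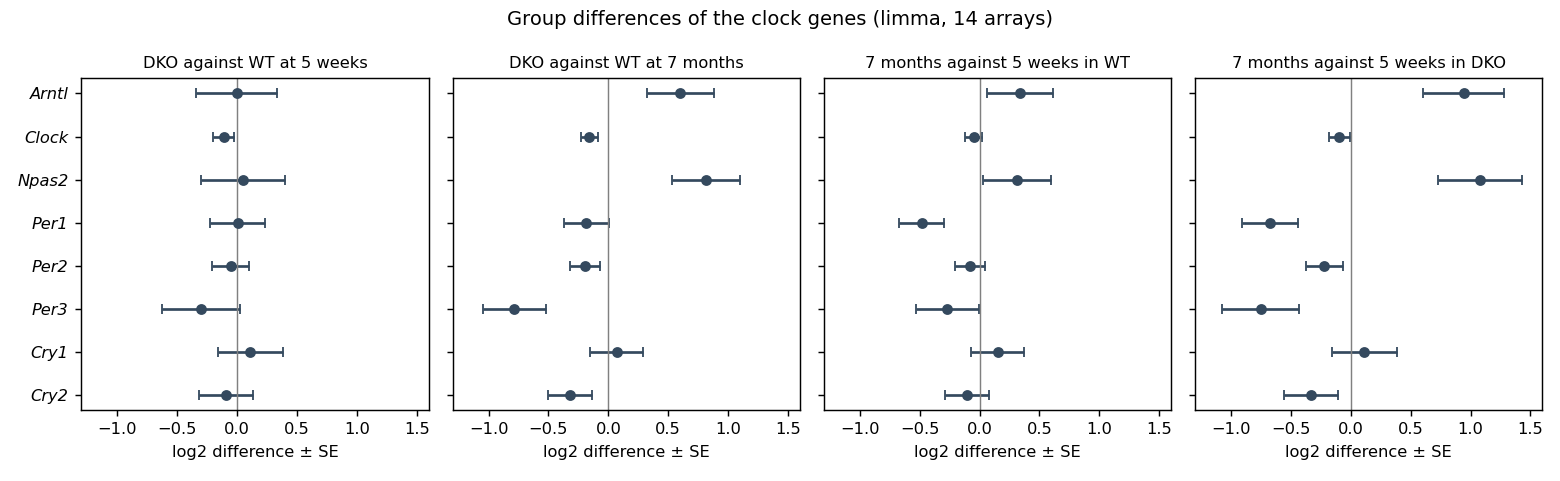
Log2 differences of the 8 clock genes in the 4 comparisons of 2 groups, with bars of 1 SE from the limma model over 14 arrays. Npas2 in DKO islets over time has the widest difference (1.08), and none of the differences drawn passed the adjusted threshold.

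Over time in DKO islets, Npas2 was higher at 7 months without overlap, as were 15.7% of all genes, and Clock, Per1 and Per3 were lower without overlap, as were 11.1%. In WT islets 0 of the 8 genes separated the 2 times in either direction (7.9% of all genes higher and 3.66% lower). The median difference of the 8 genes was -0.03 and -0.17 for genotype at 5 weeks and 7 months and -0.06 and -0.16 for time in WT and DKO, against 0.01, 0.01, 0.03 and 0.02 over all genes. The comparisons share arrays, WT and DKO at each time, so these values are not independent of each other.

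Arrays of the same group differed widely in clock gene levels at the later time. At 7 months the within-group SD over both genotypes was 0.59 for Npas2, 0.56 for Arntl, 0.55 for Per3 and 0.42 for Cry1, against 0.16 for the median gene. Npas2 ranked 160, Arntl 204, Per3 211 and Cry1 525 of 18820 genes from the widest. Their SDs at 5 weeks were 0.19, 0.27, 0.17 and 0.26, where the median gene had 0.15. Over the 8 genes the median ratio of the 7-month to the 5-week SD was 1.58, and over all genes it was 1.08. Clock was the exception, with an SD of 0.07 at 7 months, narrower than the median gene. The difference in spread between the times was not tested, and the 5-week SD rests on 6 arrays.

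**Figure D3:**
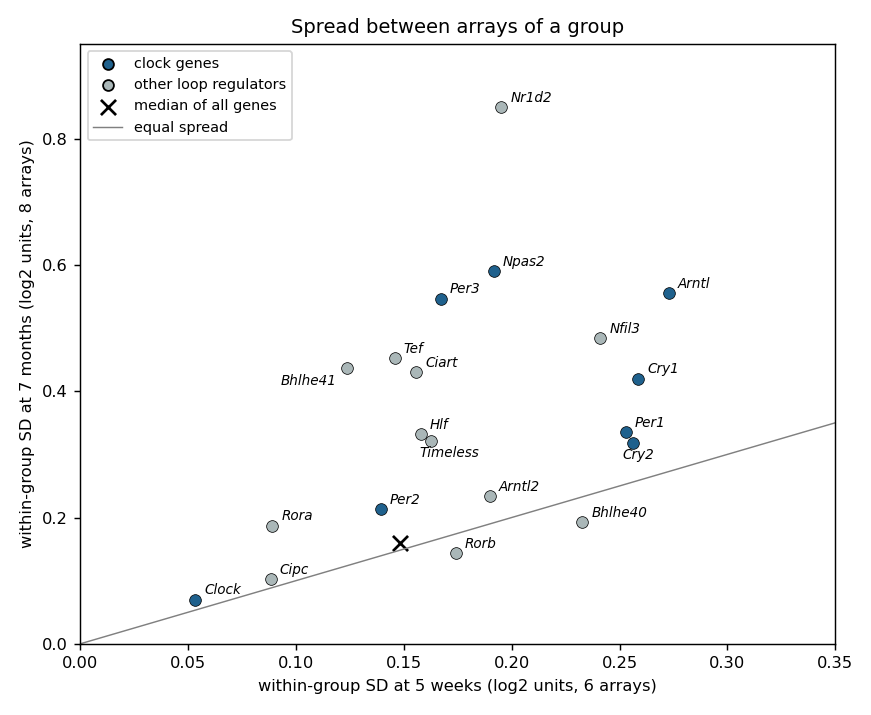
Within-group SD at 5 weeks (horizontal, 6 arrays) against that at 7 months (vertical, 8 arrays), in log2 units, for the 8 clock genes and 12 other loop regulators. The cross is the median of all genes, at 0.15 and 0.16, and the line marks equal spread. Npas2, Arntl, Per3 and the loop gene Nr1d2 lie far above the line.

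Arrays that were high in Arntl for their group tended to be high in Npas2 and Cry1 and low in Cry2, though not in every case. To set aside differences between groups, each gene was centred on its group mean, and Arntl was correlated with the 7 other genes over the 14 arrays, with an exact two-sided permutation test that exchanged arrays only within groups. That test takes the arrays of a group as exchangeable, a limit taken up with the description labels below. Pearson's r was 0.90 for Npas2 (Spearman's rho 0.89; exact permutation p = 0.000543, adjusted over the 7 relations 0.0038, and 0.000723 and 0.00506 for rho). It was 0.73 for Cry1 (rho 0.76; exact permutation p = 0.00307, adjusted 0.0108, and 0.00282 and 0.00987 for rho). For Cry2 it was -0.87 (rho -0.89; exact permutation p = 0.0112, adjusted 0.0261, and 0.00684 and 0.016 for rho). Without either DKO array of 5 weeks r was -0.86 and its call was lost. Centring leaves nothing of the array that remains, so both settings in effect drop that group. Per3 had r = -0.65 (rho -0.68), Per1 -0.49 (rho -0.31), Per2 -0.49 (rho -0.31) and Clock -0.37 (rho -0.46), with adjusted exact permutation p of 0.19, 0.19, 0.19 and 0.25 for r and 0.129, 0.366, 0.366 and 0.119 for rho, so that these 4 did not pass.

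Leaving out the 2 arrays farthest from the median of Arntl, DKO replicates 4 and 3 of 7 months, gave r = 0.89 for Npas2 and -0.87 for Cry2 (adjusted exact permutation p = 0.0243 for both) and 0.72 for Cry1 (0.0587), which no longer passed. In the 8 arrays of 7 months alone r was 0.94 for Npas2, 0.78 for Cry1, -0.86 for Cry2 and -0.81 for Per3 (adjusted exact permutation p = 0.0365, 0.0547, 0.076 and 0.076). In the 6 arrays of 5 weeks alone r was 0.67, 0.52, -0.96 and 0.96 for the same genes, with adjusted exact permutation p = 0.292 for each. So few arrays allow so few exchanges that a single relation could not pass by itself after adjustment. The r of Per3 had opposite signs at the 2 times, but neither value passed.

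**Figure D4:**
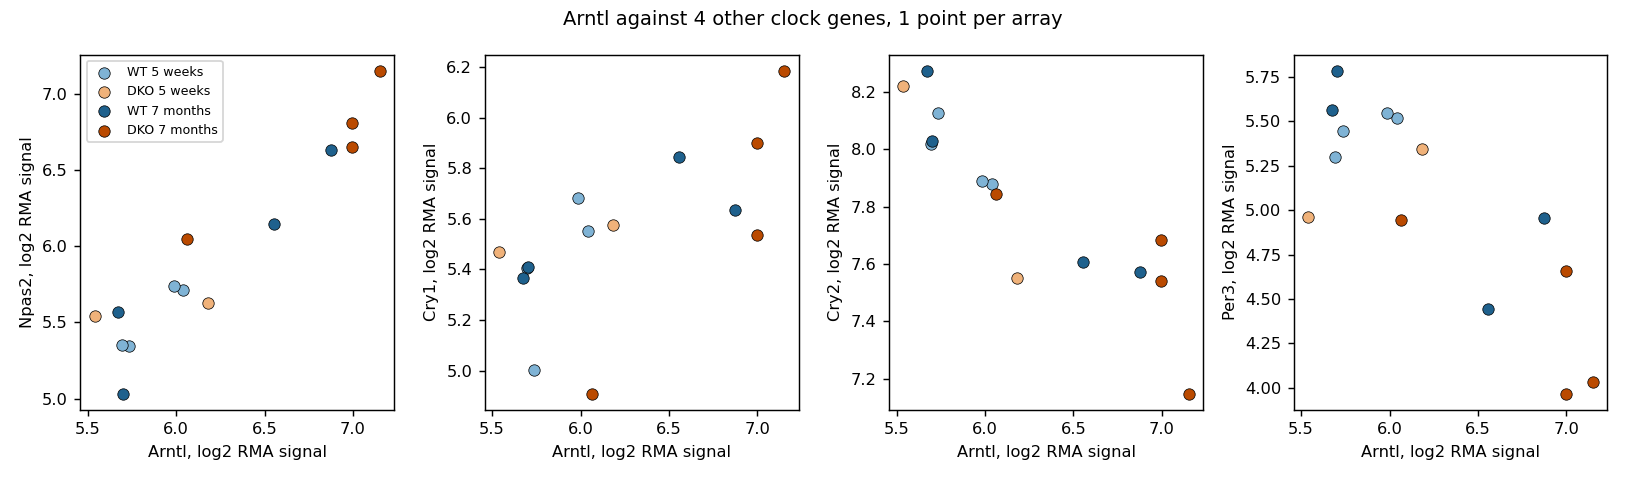
Log2 RMA signal of Npas2, Cry1, Cry2 and Per3 (vertical) against Arntl (horizontal), 1 point for each of the 14 arrays and coloured by group; the axes do not start at 0. Npas2 and Cry1 tend to be higher where Arntl is higher, and Cry2 tends to be lower there. WT arrays of 7 months lie at both ends of Arntl, and the lowest DKO array of 7 months is at 6.06.

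The codes in the description labels carry a letter that is shared by 2 arrays of 1 group, and the labels do not say what it stands for. They also carry a number, 5 or 7, likewise unexplained, and the 2 arrays of each letter differ in it. In WT islets, replicates 1 and 2 share a letter and replicates 3 and 4 another, at both times, and the DKO arrays of 7 months are split the same way. In WT islets Arntl ran with these letters. It was 5.73 and 5.69 under one letter and 6.04 and 5.99 under the other in WT at 5 weeks, and 5.70 and 5.67 against 6.87 and 6.56 in WT at 7 months. In DKO islets the 2 arrays of a letter lay farther apart in Arntl, at 5.54 and 6.18 at 5 weeks and at 7.00 and 6.06 at 7 months, while those of the other letter of 7 months were 7.00 and 7.15. The correlation of arrays of 1 letter within a group was 0.86 for Per3, 0.78 for Npas2, 0.73 for Cry1, 0.65 for Arntl, 0.56 for Cry2, 0.34 for Per1, 0.10 for Clock and -0.44 for Per2, against a median of 0.02 over all genes. For values centred within letters, r with Arntl was 0.68 for Npas2, 0.61 for Cry1, -0.66 for Cry2 and 0.18 for Per3, and 0 of the 7 relations passed (lowest adjusted exact permutation p = 0.328). Only 128 exchanges of arrays exist within letters. The test within groups took all arrays of a group as exchangeable, so likeness within letters can make its p-values too small. Since a letter never spans 2 groups or more than 2 arrays, it cannot be told apart from other differences between those mice. With the letter as a random block the counts of clock genes past the threshold were 0 in all 5 comparisons, as they were without it. That block used 1 correlation for all genes, 0.019, far below those of most clock genes. It therefore hardly accounts for the letter in them.

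Some regulators of the same loops outside the 10 genes varied between the same arrays, and others did not. Of 12 measured of 13 named, 1 passed for time in DKO, where 7.57% of all genes passed, and 0 in the other comparisons. That gene was Hlf, a D-box factor of the same family as Dbp. It was 5.01 and 5.13 in DKO islets at 5 weeks and 4.39, 4.73, 4.09 and 3.86 at 7 months. The 2 times did not overlap, and 11.1% of all genes were likewise lower without overlap. Hlf fell by 0.80 ± 0.21 (SE; limma adjusted p = 0.0323). Its call was lost without DKO replicate 1 or 2 of 5 weeks (adjusted p = 0.154 and 0.144), without DKO replicate 3 or 4 of 7 months (0.0784 and 0.063), in a fit of the DKO arrays alone (0.129), with an acinar score in the model (0.076) and with the replicate number as a block (0.0944). The list's median differences were 0.00 for genotype at 5 weeks and -0.13 at 7 months, and 0.08 and 0.00 for time in WT and DKO.

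Nr1d2, which encodes the REV-ERB receptor that represses Arntl together with that of Nr1d1, was 7.81, 7.90, 6.87 and 6.90 in WT and 7.11, 7.91, 6.43 and 5.40 in DKO islets at 7 months. The highest values were in WT replicates 1 and 2 and DKO replicate 2, the same 3 arrays that were lowest in Arntl among the 8 of that time. Its within-group SD of 0.85 ranked 55 of 18820 genes from the widest at 7 months, and at 5 weeks, where it lay between 7.21 and 7.72, the SD was 0.20. Its genotype difference at 7 months was -0.66 ± 0.40 (SE; limma adjusted p = 0.413).

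Nfil3, a repressor that binds the D-box, was 5.80, 5.90, 6.51 and 6.54 in WT and 6.65, 5.60, 6.64 and 6.83 in DKO islets at 7 months, low in the 3 arrays that were high in Nr1d2. Tef, a D-box activator, was 6.39, 6.23, 5.74 and 5.37 in WT and 5.38, 6.08, 5.26 and 5.09 in DKO at 7 months, high in those 3 arrays. Bhlhe41, which encodes a repressor of the E-box, was 7.86, 7.81, 7.28 and 7.17 in WT and 7.26, 7.56, 6.60 and 6.54 in DKO at that time, again highest in the same 3 arrays. Ciart, a repressor of the ARNTL pair whose RefSeq promoter window holds 3 E-boxes (116, 58 and 44 bases before the start), was 5.52, 4.79, 4.34 and 4.54 in WT and 4.67, 4.34, 4.03 and 3.99 in DKO. It was highest in WT replicates 1 and 2, but DKO replicate 2 lay below replicate 1. None of these 4 genes passed in any of the 5 comparisons.

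Ranked by Pearson's r with Arntl within groups over the 14 arrays, Npas2 was number 14 and Nfil3 (r = 0.89) number 22 of 18819 genes from the top, and Cry2 was number 17 from the bottom. Bhlhe41 (r = -0.83), Tef (-0.82) and Nr1d2 (-0.81) were numbers 61, 63 and 81 from the bottom. Farther from the ends were Hlf (-0.69, number 440 from the bottom), Cry1 (number 328 from the top), Arntl2, a relative of Arntl (-0.54), and Ciart (-0.52). The other 5 measured regulators had r between -0.41 and 0.33, namely Rorb (-0.41) and Rora (-0.28), which encode ROR receptors, Cipc (-0.18), Bhlhe40, a relative of Bhlhe41 (0.08), and Timeless (0.33). These ranks are a description of 14 arrays that share the letters above.

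**Figure D5:**
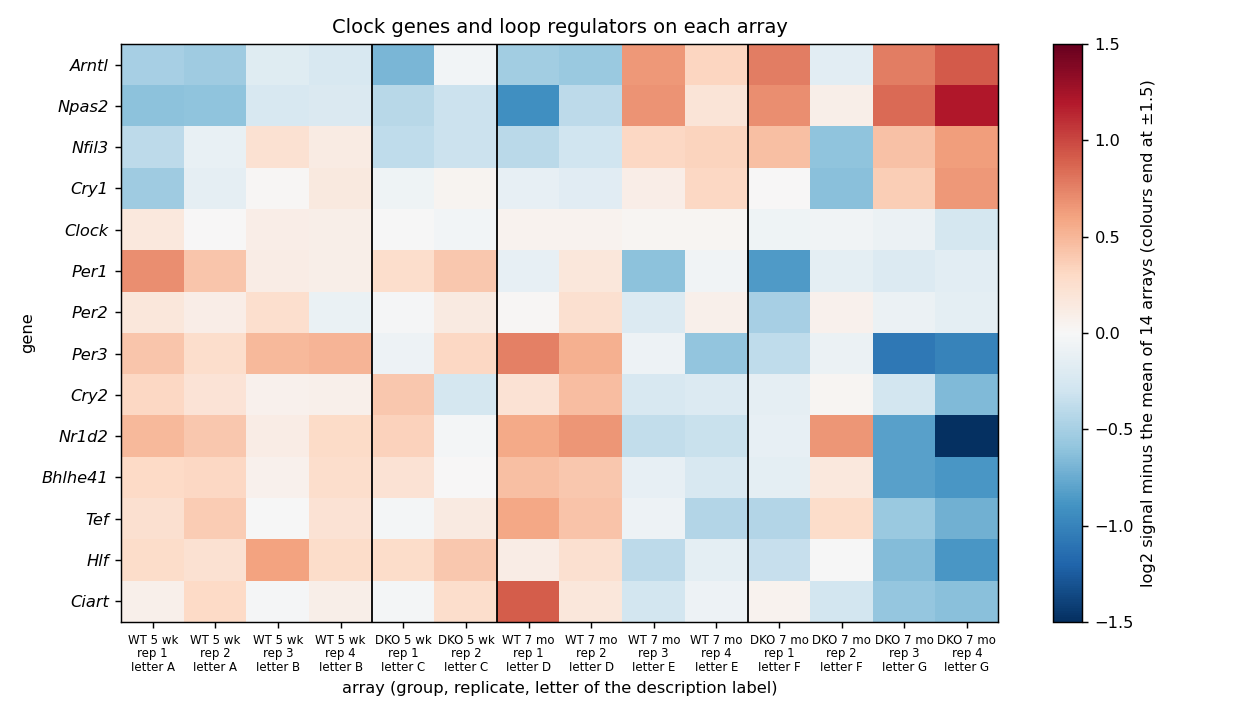
Log2 signal of 8 clock genes and 6 loop regulators on the 14 arrays, each gene minus its mean over all arrays, with arrays in columns by group, replicate and description letter. Red is above and blue below the mean. WT replicates 1 and 2 of 7 months are blue for Arntl, Npas2 and Nfil3 and red for Nr1d2, Tef and Per3, and DKO replicates 3 and 4 show the reverse.

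The genes outside the clock whose pattern was most like that of Arntl by the same measure, among 9209 genes in the brighter part of the array, were Sez6l2 (r = 0.94), the cyclin H gene Ccnh (0.94), Tmed3 (0.93), Ptprn (0.93) and the kinase gene Mast2 (0.93). The most opposite were the phospholipid flippase gene Atp8a1 (-0.93), Suclg2, a subunit of mitochondrial succinyl-CoA ligase (-0.92), and Slc37a4, the glucose-6-phosphate transporter (-0.89). Ptprn, which encodes a protein of insulin granules, was 10.37, 10.37, 10.74 and 10.69 in WT and 10.96, 10.54, 10.94 and 10.92 in DKO islets at 7 months, lowest in the same 3 arrays as Arntl.

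Genes that modify or degrade clock proteins, among them the casein kinases Csnk1d and Csnk1e, did not pass in any of the 5 comparisons (0 of 13 measured of 15 named). Of 14 measured genes from a list of clock outputs, 2 changed. For genotype 1 passed at each time (0.994% of all genes at 5 weeks and 4.71% at 7 months). For time 1 passed in WT and 2 in DKO (2.37% and 7.57%), and for the interaction 1 (0.0903%). Wee1, a mitotic kinase, rose in DKO islets at 5 weeks by 0.64 ± 0.11 (SE; limma adjusted p = 0.0121), with values of 6.34 and 6.47 against 5.70 to 5.82, and fell in DKO over time to between 5.86 and 6.12 (-0.42 ± 0.11, adjusted p = 0.0288). The first call was lost without DKO replicate 1 (adjusted p = 0.0718) or 2 (0.08) and the second without DKO replicate 1 of 7 months (0.0563) or either DKO array of 5 weeks (0.105 and 0.161). The second was also lost in a fit of the DKO arrays alone (0.134), with arrays centred on their medians (0.0504), with an acinar score in the model (0.0724), with array weights (0.086) and with the replicate number as a block (0.082). Pdk4, a kinase that holds back pyruvate oxidation and answers to fatty acids as well as to the clock, was 6.74 to 6.99 in WT and 6.59 and 6.77 in DKO islets at 5 weeks, 4.94 to 5.58 in WT and 3.65 to 3.89 in DKO at 7 months. Over time it fell in both genotypes, with differences of -1.63 ± 0.12 in WT and -2.90 ± 0.15 in DKO (SE; limma adjusted p = 7.37e-06 and 1.23e-07). DKO was below WT at 7 months (-1.46 ± 0.12, adjusted p = 5e-06), and the interaction was -1.27 ± 0.19 (adjusted p = 0.0177). The interaction was lost without WT replicate 3 (0.0536) or DKO replicate 1 (0.132) of 5 weeks and with the replicate number as a block (0.0656). Pdk4 did not separate DKO replicate 2 from the other DKO arrays of 7 months as Arntl did, with 3.89 there against 3.65 to 3.80.

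Markers of other cells differed between the genotypes at 7 months, the time at which Arntl, Npas2 and Per3 had their wider differences of genotype. Of all genes, 2.44% passed as higher and 2.27% as lower in DKO at that time, the shares beside which the counts below stand. Of 11 stellate cell and fibroblast genes 7 rose in DKO, with list means of 0.24 to 0.94 in DKO and -0.44 to -0.25 in WT islets. Of 12 macrophage genes 4 rose (0.04 to 0.69 against -0.16 to -0.04), and of 12 endothelial genes 2 rose and 1 fell (0.16 to 0.36 against 0.02 to 0.09). Of 14 endocrine genes 3 fell, Sst, Gcg and Ppy (-0.29 to -0.02 against 0.04 to 0.11), and of 16 acinar genes 0 passed (0.01 to 0.41 against -2.41 to 0.85). Of 8 T and B cell genes 0 passed (-0.11 to 1.66 against -0.29 to 0.03), and of 6 duct genes 1 fell (-0.23 to -0.03 against -0.29 to 0.30). Of 12 glucocorticoid response genes 1 rose and 1 fell, Ddit4 and Pdk4 (-0.41 to 0.06 against -0.26 to 0.07), and of 7 heat shock and temperature genes 0 passed (-0.02 to 0.23 against -0.27 to 0.04). The glucocorticoid list shares 3 genes, Tsc22d3, Klf9 and Pdk4, with the list of outputs. Within groups, the list mean of the glucocorticoid response genes had r = -0.81 with Arntl over the 14 arrays and that of the endocrine genes -0.52, and for the other lists of this paragraph r lay between -0.33 and 0.35. The part of these cells and responses in the clock gene values was not tested.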

How the data were processed

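RNA of islets from 14 mice was measured on a whole-transcript array. The authors deposited RMA signals, per the submitters' processing notes, which name no version, and their values show a log2 scale. Of 35556 probe sets, 21218 carried 1 gene symbol, 1881 several and 12457 none. The brightest single-symbol probe set of a gene over all arrays stood for it, which gave 18820 genes, 18790 named through their Entrez identifier (GRCm38.p6 table). All columns were matched to samples.

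Group means were modelled over all 14 arrays in limma 3.58.1 under R 4.3.3 (lmFit and eBayes, default prior), with Benjamini-Hochberg adjustment over all genes at 0.05, and the fit was tested on simulated data. P-values measure the spread between these samples. Correlations used 27648 exchanges within groups. Likeness was to be described for Dbp too, and 9 relations were planned, but Dbp and Nr1d1 had no single-symbol probe set. Alternatives were other fits, filters, scalings and blocks, and each array left out in turn. Named are the 10 genes, list genes past the threshold, and the 5 highest and 3 lowest r with Arntl; other loop regulators were picked after their values were seen. Genes and lists were chosen with earlier results of these data known. Python 3.11.15 and matplotlib 3.10.9 drew the figures.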

Additional observations from a re-analysis of the deposited data

Results flagged for a closer look

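A total of 3 values stood apart in groups of 4 by Dixon's criterion, all in DKO islets of 7 months, among 24 gene and group combinations examined, of which chance flags about 1 in 20. Arntl was lowest in replicate 2, at 6.06, where the other arrays lay between 7.00 and 7.15. Clock was lowest in replicate 4, at 9.17, against 9.34 to 9.38. Per1 was lowest in replicate 1, at 6.33, against 6.97 to 7.03. The 3 values came from 3 different arrays.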

How the results depend on the processing

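Counts of the 8 clock genes past the threshold stayed at 0 for genotype at 5 weeks, time in WT and the interaction in each alternative run. For genotype at 7 months the count was 0 to 2 with 1 array left out and 1 with the replicate block (Npas2, adjusted p = 0.0377). For time in DKO it was 0 to 2 with 1 array left out and 1 without dim genes (Npas2, adjusted p = 0.0463). Same-numbered arrays of different groups did not deviate together over all genes (r from -0.16 to 0.16 over 12 pairs, 1 above 0.1). A value over all genes cannot show a pairing confined to some genes. All-gene counts ran from 44 (without DKO replicate 1) to 282 (trended robust prior) beside 187 for genotype at 5 weeks, and from 488 (only the arrays compared) to 1681 (without DKO replicate 2) beside 887 at 7 months. They ran from 221 (without WT replicate 1 of 7 months) to 786 (array weights) beside 446 for time in WT, from 347 (only the arrays compared) to 2051 (without DKO replicate 2 of 7 months) beside 1424 in DKO, and from 2 (without DKO replicate 1 of 5 weeks) to 185 (without DKO replicate 2 of 7 months) beside 17 for the interaction.

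Of 1118 single gene values recomputed, 1058 kept direction and side of the threshold, 20 lost and 10 gained a call, and 30 changed sign, each of them a clock gene difference that did not pass. With the replicate block, Arntl and Per1 at 5 weeks became 0.31 and -0.076, and Cry1 over time in DKO -0.15. With arrays centred on their medians, Per1 at 5 weeks became -0.0061, and the interactions of Clock and Cry1 became 0.016 and 0.020. Arntl at 5 weeks was 0.10 with the acinar score and 0.027 with array weights, which gave -0.043 for Per1. With 1 array left out, the genotype difference at 5 weeks ran from -0.32 to 0.32 for Arntl, -0.016 to 0.12 for Npas2, -0.074 to 0.13 for Per1, -0.13 to 0.025 for Per2, -0.025 to 0.20 for Cry1 and -0.43 to 0.24 for Cry2. Cry1 ran from -0.11 to 0.31 for genotype at 7 months and -0.073 to 0.35 for time in DKO, and Cry2 from -0.67 to 0.0010 for the latter. Interactions ran from -0.068 to 0.0026 for Clock, -0.23 to 0.20 for Cry1 and -0.56 to 0.11 for Cry2. The cause was not tested.

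Without centring on group means, r with Arntl was -0.65 for Clock, -0.72 for Per1, -0.68 for Per2 and -0.81 for Per3, and these 4 passed by r. The rho of Per2 was -0.53 and did not pass (permutation test, adjusted p = 0.0503). Arrays were exchanged across groups there, so differences between groups enter these values. In the 5-week arrays alone r was 0.67 for Npas2, 0.29 for Per2, 0.96 for Per3, 0.52 for Cry1 and -0.96 for Cry2, and in the 7-month arrays alone 0.78 for Cry1 and -0.86 for Cry2. Centred within letters it was 0.68 for Npas2, 0.18 for Per3, 0.61 for Cry1 and -0.66 for Cry2. Without the 2 farthest arrays Cry1 had 0.72. With 1 array left out Cry2 ran from -0.91 to -0.84. Its call was lost without either DKO array of 5 weeks, 2 settings that both in effect drop that group. Settings other than those of the first list of alternatives (letters, single times and arrays left out of the correlations) were chosen after seeing the data.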

Other observations

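The probe sets annotated to 2 symbols are given by number, since their signal belongs to neither gene with certainty. Probe set 10553092, annotated to both Dbp and Sphk2, was 8.77, 8.45, 8.10 and 7.75 in WT and 7.49 and 7.69 in DKO islets at 5 weeks. At 7 months it was 8.30, 8.41, 6.66 and 6.56 in WT and 7.00, 8.08, 6.35 and 5.87 in DKO, high in the 3 arrays of that time that were lowest in Arntl. Probe set 10390691, annotated to both Nr1d1 and Thra, was 8.73, 8.99, 7.58 and 7.26 in WT and 8.01, 9.55, 7.28 and 6.23 in DKO at 7 months. It had its highest value of all arrays in DKO replicate 2 and its lowest in DKO replicate 4. Another probe set with the same pair of symbols, 10381006, ran from 6.71 to 7.77 over the 14 arrays and was likewise lowest in DKO replicate 4.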
